A study of Mus musculus with 6 samples.

Results

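The 9 genes described here encode the core of the transforming growth factor-β (TGF-β) pathway: the ligands Tgfb1, Tgfb2 and Tgfb3, the receptors Tgfbr1 and Tgfbr2, and the Smads Smad2, Smad3, Smad4 and Smad7. They were taken by symbol from a table of read counts with 23337 genes, and all 9 were found in it. The study asked whether raising serum response factor (SRF), the transcription factor that binds CArG boxes in many muscle genes, promotes maturation of cardiomyocytes (CMs). Wildtype mouse pups received AAV9 at postnatal day 1, at 5e8 viral genomes per g of body weight, a mosaic dose that transduces part of the CMs. In the SRF-OE group the virus was AAV9-cTNT-SRF-2A-GFP and in the GFP group AAV9-cTNT-GFP. In both, expression was driven by the cardiac troponin T promoter, so only CMs were meant to carry the transgene, and both groups carried virus and GFP. GFP-positive cells were sorted at postnatal day 14 after collagenase perfusion, and the libraries were called biological replicates by the study.

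TGF-β ligands are secreted in a latent complex and are freed outside the cell. The free ligand binds the type II receptor, which recruits and phosphorylates the type I receptor, and this receptor phosphorylates Smad2 and Smad3. The phosphorylated Smads join Smad4, enter the nucleus and switch on genes that include Smad7, which blocks the type I receptor and closes a feedback loop. In the heart the pathway is known for matrix production by fibroblasts, for formation of the valves and for fibrosis after injury, and Tgfb2 is the ligand most closely tied to the developing cardiac cushions.

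The labels list 6 libraries, 3 SRF-OE and 3 GFP, but the table holds counts for 5. The column named for SRF-OE replicate 1 holds gene lengths, with 0 zeros, and was used only as length. The header thus has 1 library name more than there are columns of counts, and the labels cannot show which name lost its counts, so the 5 columns were used under the names that stand over them. Total counts ran from 14137433 to 23159631 per library. Srf was at 360 and 748 CPM (counts scaled to library size with edgeR's TMM factors) in SRF-OE replicates 2 and 3 and at 67.3 and 85.1 CPM in GFP replicates 2 and 3, but at 338 CPM in the library labelled GFP1. That library therefore went against its label, and each comparison is given for the 5 libraries as labelled and again without it. If the header is displaced, the column labelled GFP1 may hold an SRF-OE library. The GFP group of the 5 libraries as labelled would then mix both groups. Whether the header is displaced was not tested. By Xist and the Y-linked gene Ddx3y, replicate 2 of both groups came from female and the other 3 libraries from male animals. The defining CM genes Myh6, Actn2, Tnnt2 and 7 others were found in every library, with a summed level from 79992 to 129796 CPM, so the CM label held.

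The ligands were the members that differed most between libraries, while the receptors and Smads stayed in a narrower range. Tgfb2 was 2.80-fold higher in the mean of SRF-OE than in the mean of GFP and Tgfb3 1.83-fold higher. Between these means Tgfb1, with a ratio of 1.22, was close to the receptors Tgfbr1 and Tgfbr2, with 1.19 and 1.09. The Smads had ratios from 0.887 for Smad4 to 1.07 for Smad3. With the 5 libraries as labelled, 0 of the 9 genes passed the cutoff upward and 0 downward (adjusted p of 0.05 in edgeR's quasi-likelihood test, Benjamini-Hochberg over 13754 genes). Over all genes tested, 0% were called higher and 0% lower, so the count holds for the whole table and not for the pathway alone. At an unadjusted p under 0.05, 2 of the 9 genes, Tgfb2 and Tgfb3, were higher and 0 lower, against 6.35% and 7.59% of all genes. DESeq2 gave 0 of the 9 genes an adjusted p after its independent filtering, which left 1079 genes with one (1.02% of these called higher and 19.7% lower), and 1 of the 9 had an unadjusted p under 0.05. With the library labelled GFP1 left out, 1 of the 9 genes, Tgfb2, was called higher and 0 lower, against 1.98% and 0.97% of the 13397 genes tested, and the counts at an unadjusted p under 0.05 were 3 and 0, against 14.4% and 14%. DESeq2 called 2 of the 9 higher in these 4 libraries, Tgfb2 and Tgfb3, and 0 lower, against 6.31% and 6.16% of its genes.

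**Figure D1:**
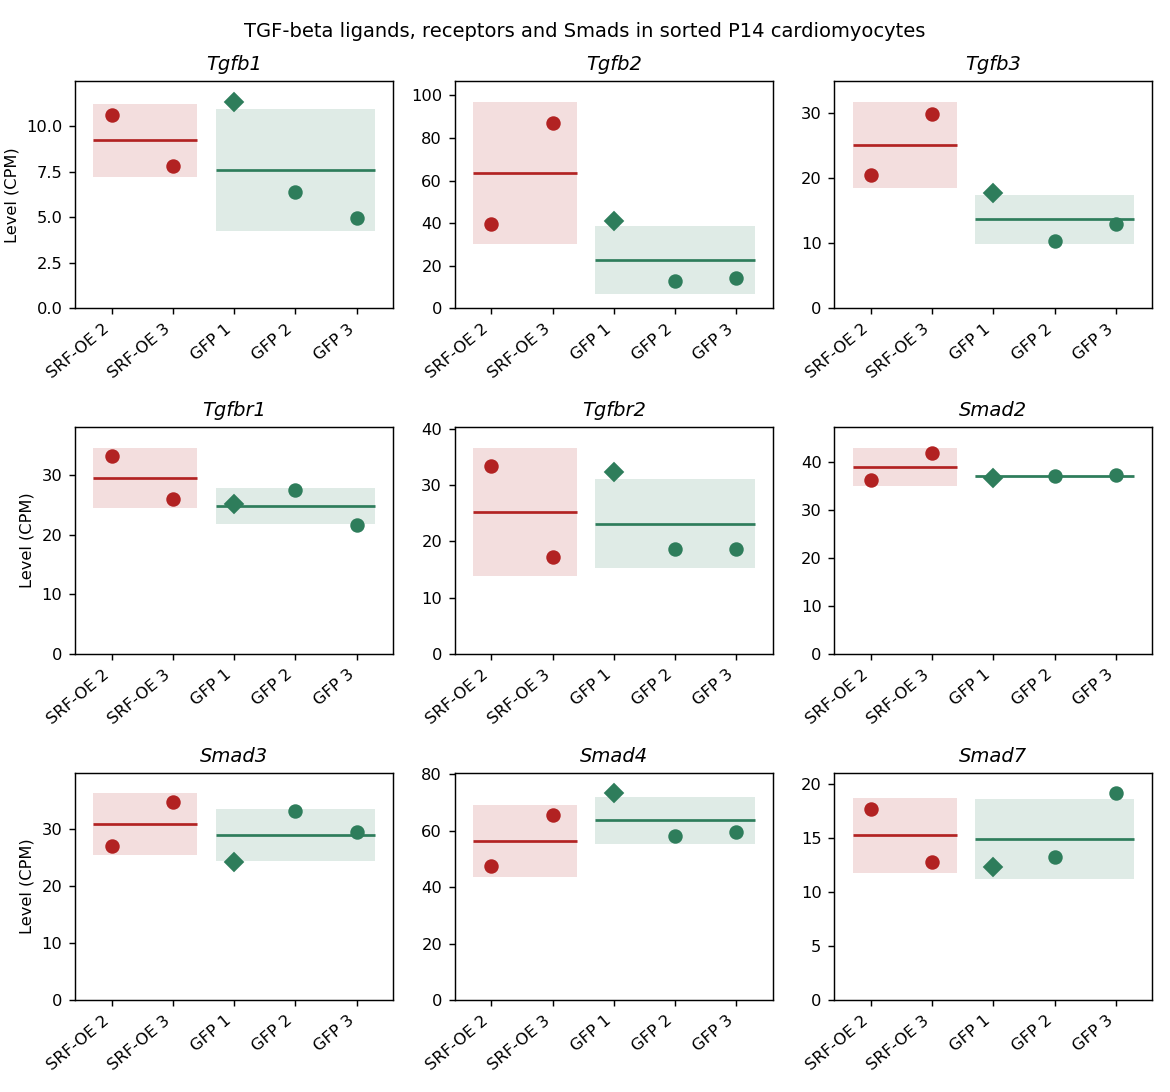
Level of each of the 9 genes in CPM (y axis, from 0) in each of the 5 libraries (x axis). Red points are SRF-OE and green points GFP, with a diamond for the library labelled GFP1. Lines are group means and bands the SD (n = 2 in SRF-OE, n = 3 in GFP). Tgfb2 reaches 87.2 CPM in SRF-OE replicate 3, and Smad2 lies between 36.2 and 41.8 CPM in all 5 libraries.

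Tgfb2 (chromosome 1 of GRCm38, 186622792 to 186705989, minus strand) encodes TGF-β2, a ligand that needs a coreceptor for tight binding to the type II receptor. It stood at 39.8 and 87.2 CPM in SRF-OE replicates 2 and 3. In GFP it was 12.8 CPM in replicate 2, 14.3 CPM in replicate 3 and 41.1 CPM in the library labelled GFP1. The lower SRF-OE library and the library labelled GFP1 were thus alike, while GFP replicates 2 and 3 lay below both SRF-OE libraries. The counts behind these levels were 689 and 1995 reads in SRF-OE, 279 and 181 reads in GFP replicates 2 and 3, and 864 reads in the library labelled GFP1. The SRF-OE mean of 63.5 ± 33.5 CPM (SD, n = 2) stood against a GFP mean of 22.7 ± 15.9 CPM (SD, n = 3). The log2 fold change was 1.48 (standard error 0.56, 95% interval 0.13 to 2.83, adjusted p = 0.36 from edgeR). Without the library labelled GFP1, Tgfb2 rose by 2.24 on the log2 scale (standard error 0.37, 95% interval 1.32 to 3.16, adjusted p = 0.049 from edgeR). That call lies at the threshold: upper quartile scaling of the same 4 libraries gave an adjusted p of 0.052 in edgeR and DESeq2 gave 1.4e-09. SRF-OE replicate 2 was 3.11-fold above GFP replicate 2, the female pair, and SRF-OE replicate 3 was 6.10-fold above GFP replicate 3, a male pair.

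Tgfb3 (chromosome 12, 86056745 to 86079041, minus strand) encodes TGF-β3, known for its part in palate closure and scar formation. It was at 20.5 and 29.9 CPM in SRF-OE replicates 2 and 3 and at 10.4 and 13.0 CPM in GFP replicates 2 and 3, and at 17.8 CPM in the library labelled GFP1. Both SRF-OE libraries were above all 3 GFP libraries, and it was the only one of the 9 genes of which this was true with the 5 libraries, where 16.1% of all genes tested lay above and 17.3% below in the same way. The means were 25.2 ± 6.60 CPM (SD, n = 2) and 13.7 ± 3.78 CPM (SD, n = 3). The log2 fold change of 0.88 (standard error 0.28, 95% interval 0.21 to 1.54) had an adjusted p of 0.35 from edgeR. Without the library labelled GFP1 it was 1.12 (standard error 0.24, 95% interval 0.52 to 1.72) with an adjusted p of 0.061 from edgeR, and DESeq2 on those 4 libraries gave 0.0030. From low to high, the 5 libraries stood in the order GFP replicate 2, GFP replicate 3, the library labelled GFP1, SRF-OE replicate 2 and SRF-OE replicate 3, which is the order of Srf itself. The same order was found for 446 of the 13753 other genes tested (3.24%). An exon of Tgfb3 lies on Ttll5 of the opposite strand, and an antisense gene overlaps Tgfb2. The overlap was taken with the whole span of these partners, introns included, so shared exons were not tested. Whether the counting used strand is not given in the sources used here, so reads of any shared exons cannot be told apart.

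Tgfb1 (chromosome 7, 25687002 to 25705077, plus strand) encodes TGF-β1, the ligand that platelets and immune cells make in quantity. It was at 10.6 and 7.83 CPM in SRF-OE replicates 2 and 3, 6.42 and 4.97 CPM in GFP replicates 2 and 3 and 11.4 CPM in the library labelled GFP1. The highest value of the 5 was that of the library labelled GFP1, so the groups as labelled overlapped. The lowest count behind any of the 9 genes was 63 reads of Tgfb1 in GFP replicate 3, with a Poisson 95% interval of 48.4 to 80.6 reads that covers counting error only. The means were 9.23 ± 1.99 CPM (SD, n = 2) and 7.58 ± 3.35 CPM (SD, n = 3), with a log2 fold change of 0.27 (standard error 0.38, 95% interval -0.63 to 1.17, adjusted p = 0.74 from edgeR). Without the library labelled GFP1 it was 0.69 (95% interval 0.02 to 1.36, adjusted p = 0.17 from edgeR). In that comparison 3 of the 9 genes, Tgfb1, Tgfb2 and Tgfb3, were higher in both SRF-OE libraries than in both GFP libraries, against 30.8% of all genes. The upward count was thus close to the share over all genes. Of the 9 genes, 0 were lower in both, against 30.2%. The difference between the changes of Tgfb1 and Tgfb2 was not tested.

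**Figure D2:**
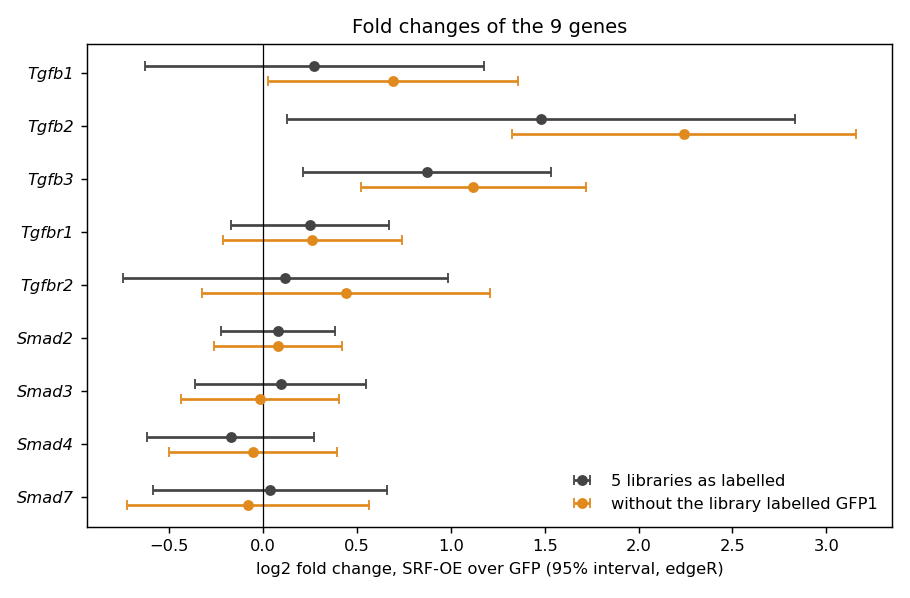
log2 fold change of SRF-OE over GFP (x axis) for the 9 genes (y axis), with bars for the 95% interval of edgeR. Grey points use the 5 libraries as labelled and orange points leave out the library labelled GFP1. The interval of Tgfb2 runs from 0.13 to 2.83 with 5 libraries and from 1.32 to 3.16 without that library, and the intervals of the receptors and Smads include 0 in both.

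The ligands can be set against each other only per length, here as CPM per kb of the gene length in the table. In GFP replicates 2 and 3 they were close, with Tgfb1 at 3.07 and 2.37, Tgfb2 at 2.71 and 3.02 and Tgfb3 at 3.06 and 3.85 CPM per kb. In SRF-OE replicate 3, Tgfb2 stood at 18.5 CPM per kb and made up 59.5% of the 3 ligands together. Its share was 43.1% in SRF-OE replicate 2, 44.8% in the library labelled GFP1, and 30.6% and 32.7% in GFP replicates 2 and 3. The share of Tgfb1 was lowest in SRF-OE replicate 3, at 12.0%, and between 25.7% and 34.7% elsewhere. The ligands summed to 19.6 and 31.0 CPM per kb in SRF-OE, to 8.84 and 9.25 CPM per kb in GFP replicates 2 and 3, and to 19.4 CPM per kb in the library labelled GFP1. The Tgfb1 length in the table was 41.5% of the exon length in GENCODE, so its level per kb would be lower with that length.

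**Figure D3:**
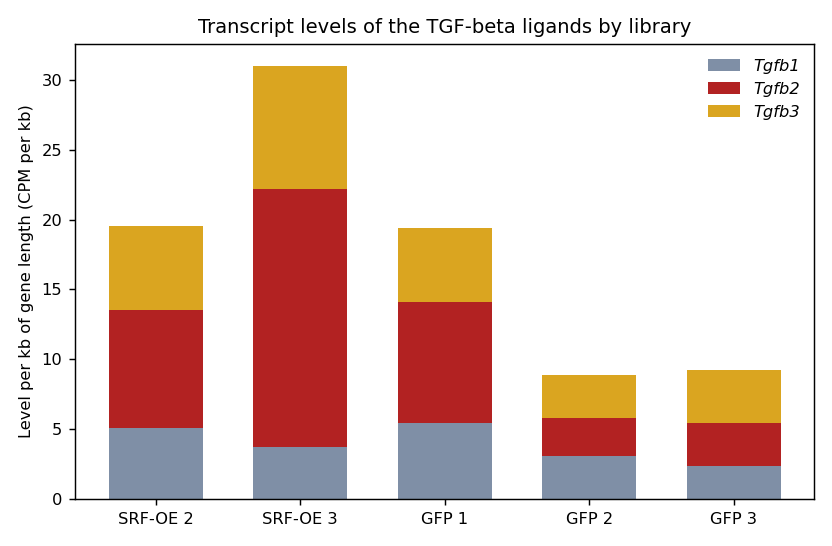
Levels of Tgfb1, Tgfb2 and Tgfb3 per kb of gene length (y axis, CPM per kb, stacked from 0) in each library (x axis). The summed height is 31.0 in SRF-OE replicate 3 and 8.84 and 9.25 in GFP replicates 2 and 3, and most of the difference is the red Tgfb2 segment.

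Because the transgene is a DNA-binding factor, the 250 bases before the start of each gene were searched for its motif. RefSeq held 6 starts for 5 of the 9 genes on GRCm38.p6, those of Tgfb1, Tgfb2, Tgfbr1, Tgfbr2 and Smad3. The CArG box was found on either strand before 0 of the 6 starts, and before 1.47% of all 32851 starts. With 1 mismatch allowed, 1 of the 6 starts, that of Tgfbr2, held it, against 18.6% of all. The core letters bound by Smads, CAGAC on either strand, stood before 3 of the 6 starts and 42.2% of all. The windows of the ligands with a RefSeq start are shown to set Tgfb2, called only without the library labelled GFP1, beside Tgfb1, which was not called by edgeR in either comparison. In Tgfb2 the capitals mark CAGAC and the E-box CACGTG (6.02% of all starts), and in Tgfb1 they mark GGGCGG, the letters bound by Sp1, on either strand (32.7% of all starts). Both are written 5′ to 3′ along the gene, from chr1:186705990-186706239 on the minus strand and chr7:25686752-25687001 on the plus strand.
Tgfb2: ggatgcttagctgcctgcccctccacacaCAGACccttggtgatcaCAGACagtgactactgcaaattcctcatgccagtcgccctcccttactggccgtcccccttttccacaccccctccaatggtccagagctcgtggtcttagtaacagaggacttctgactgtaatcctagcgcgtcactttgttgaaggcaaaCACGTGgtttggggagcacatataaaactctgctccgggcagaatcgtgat
Tgfb1: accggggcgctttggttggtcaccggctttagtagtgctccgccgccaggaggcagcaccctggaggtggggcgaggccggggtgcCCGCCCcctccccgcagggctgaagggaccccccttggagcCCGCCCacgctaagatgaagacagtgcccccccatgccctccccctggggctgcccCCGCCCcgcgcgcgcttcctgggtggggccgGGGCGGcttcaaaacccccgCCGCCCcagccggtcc
The Tgfb2 window had 2 copies of CAGAC and 1 of CACGTG, and 53.6% of its bases were G or C. The Tgfb1 window had 5 copies of GGGCGG and 75.2% G or C, against a median of 52.4% over all starts. The marked copies do not overlap. The Tgfb2 window had 0 copies of GGGCGG, and the Tgfb1 window 0 of CAGAC and 0 of CACGTG. These letters are a description of the windows, and binding was not measured in the libraries used here.

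The receptors differed less between libraries than the ligands. Tgfbr1 (chromosome 4, 47353222 to 47414931) encodes the type I receptor, the kinase that phosphorylates Smad2 and Smad3. It was at 33.1 and 26.0 CPM in SRF-OE replicates 2 and 3, at 27.6 and 21.7 CPM in GFP replicates 2 and 3 and at 25.2 CPM in the library labelled GFP1. The groups overlapped, and the log2 fold change was 0.25 (standard error 0.17, 95% interval -0.17 to 0.67, adjusted p = 0.51 from edgeR). Tgfbr2 (chromosome 9, 116084293 to 116175360) encodes the type II receptor that binds the ligand first. It was high in SRF-OE replicate 2, at 33.3 CPM, and in the library labelled GFP1, at 32.2 CPM, but at 17.2 CPM in the other SRF-OE library and 18.6 CPM in both GFP replicates 2 and 3. These 2 libraries, which carry different labels, were high and the other 3 were low. The log2 fold change was 0.12 (standard error 0.36, 95% interval -0.74 to 0.98, adjusted p = 0.89 from edgeR), and it was -0.43 without SRF-OE replicate 2 and 0.44 without the library labelled GFP1.

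Among the receptor-activated Smads, Smad2 (chromosome 18, 76241580 to 76310963) was the steadiest of the 9 genes, with 36.2 and 41.8 CPM in SRF-OE replicates 2 and 3 and 36.7, 37.0 and 37.3 CPM in the library labelled GFP1 and GFP replicates 2 and 3. Its highest level was 1.15-fold its lowest, whereas that ratio was 6.81 for Tgfb2 and 2.88 for Tgfb3. The log2 fold change of Smad2 was 0.08 with a 95% interval of -0.23 to 0.38. Smad3 (chromosome 9, 63646767 to 63757994), which unlike the main form of Smad2 binds DNA directly, was at 27.1 and 34.8 CPM in SRF-OE and at 24.3, 33.2 and 29.5 CPM in GFP, listed in the order of the replicate numbers. Its libraries were mixed between groups, and the log2 fold change of 0.09 had a 95% interval of -0.36 to 0.55. It was -0.01 without the library labelled GFP1. A change beyond 0.55 in either direction lay outside the intervals of both genes with 5 libraries.

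Smad4 (chromosome 18, 73639009 to 73703780), the partner that all activated Smads share, was at 47.5 and 65.5 CPM in SRF-OE and at 58.1 and 59.8 CPM in GFP replicates 2 and 3. The library labelled GFP1 had the highest level, 73.3 CPM, and SRF-OE replicate 2 the lowest. The log2 fold change was -0.17 (standard error 0.19, 95% interval -0.62 to 0.27, adjusted p = 0.67 from edgeR). Smad7 (chromosome 18, 75367529 to 75395935), the inhibitory Smad and a target of the pathway, was at 17.7 and 12.8 CPM in SRF-OE and at 12.3, 13.3 and 19.1 CPM in the library labelled GFP1 and GFP replicates 2 and 3. Neither group was uniformly higher, and the log2 fold change was 0.04 (standard error 0.26, 95% interval -0.58 to 0.66). Without the library labelled GFP1 it was -0.08, with an interval of -0.72 to 0.57.

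Per kb of gene length, Smad4 was the highest of the 9 genes in each of the 5 libraries, with a mean of 18.2 ± 2.85 CPM per kb (SD, n = 5). Tgfb2 followed with 8.26 ± 6.37, then Smad3 with 5.85 ± 0.845, Tgfb3 with 5.41 ± 2.24, Tgfbr2 with 5.01 ± 1.68, Tgfbr1 with 4.71 ± 0.737, Smad2 with 4.14 ± 0.249, Tgfb1 with 3.94 ± 1.30 and Smad7 with 3.38 ± 0.708 CPM per kb. Over the exon length in GENCODE, an alternative chosen after seeing the data, Tgfbr2 came to 2.93 and Tgfb1 to 1.63 CPM per kb, the lowest 2 of the 9. With the table's lengths, the ranges of all neighbours in this order overlapped, and only Smad4 was above its neighbour in 5 of 5 libraries. In GFP replicates 2 and 3 alone, at least 7 of the other 8 genes had a higher level per kb than Tgfb2. Across the 9 genes, 8 log2 fold changes were above 0 with the 5 libraries (53.3% of all genes) and 6 without the library labelled GFP1 (53.2%). The median log2 fold change was 0.12 and 0.26, beside 0.03 and 0.04 over all genes.

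Markers of other cell types moved with some of the 9 genes. The 10 endothelial markers summed to 789 and 603 CPM in SRF-OE replicate 2 and the library labelled GFP1, but to 310, 330 and 351 CPM in SRF-OE replicate 3 and GFP replicates 2 and 3. All 10 leukocyte markers summed to 40.5 and 31.7 CPM in the same pair of libraries and to between 13.7 and 16.1 CPM in the other 3. Tgfbr2 and Tgfb1 had their highest levels in that pair, and the part of endothelial or immune RNA in this was not tested. The 5 platelet markers, whose cells carry TGF-β1, summed to 7.80, 4.85 and 7.13 CPM in SRF-OE replicates 2 and 3 and the library labelled GFP1 and to 2.66 and 2.92 CPM in GFP replicates 2 and 3, with 1 and 2 of the 5 markers at 0 counts in the last 2 libraries. Tgfb2 was highest in SRF-OE replicate 3, the library with the lowest endothelial sum. The 9 fibroblast markers summed to 382 and 213 CPM in SRF-OE, 158 and 137 CPM in GFP replicates 2 and 3 and 230 CPM in the library labelled GFP1, and the 8 smooth muscle and pericyte markers to 336, 326, 146, 182 and 351 CPM in the same order. Tgfb2 and Tgfb3 were lowest in the 2 libraries where both sums were lowest, and the part of these cells was not tested. The CM markers summed to 82923 and 79992 CPM in SRF-OE, 112936 and 129796 CPM in GFP replicates 2 and 3 and 89682 CPM in the library labelled GFP1. In bulk samples, fewer cells of a type and less RNA per cell cannot be told apart. The 4 erythroid markers summed to at most 1.56 CPM.

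**Figure D4:**
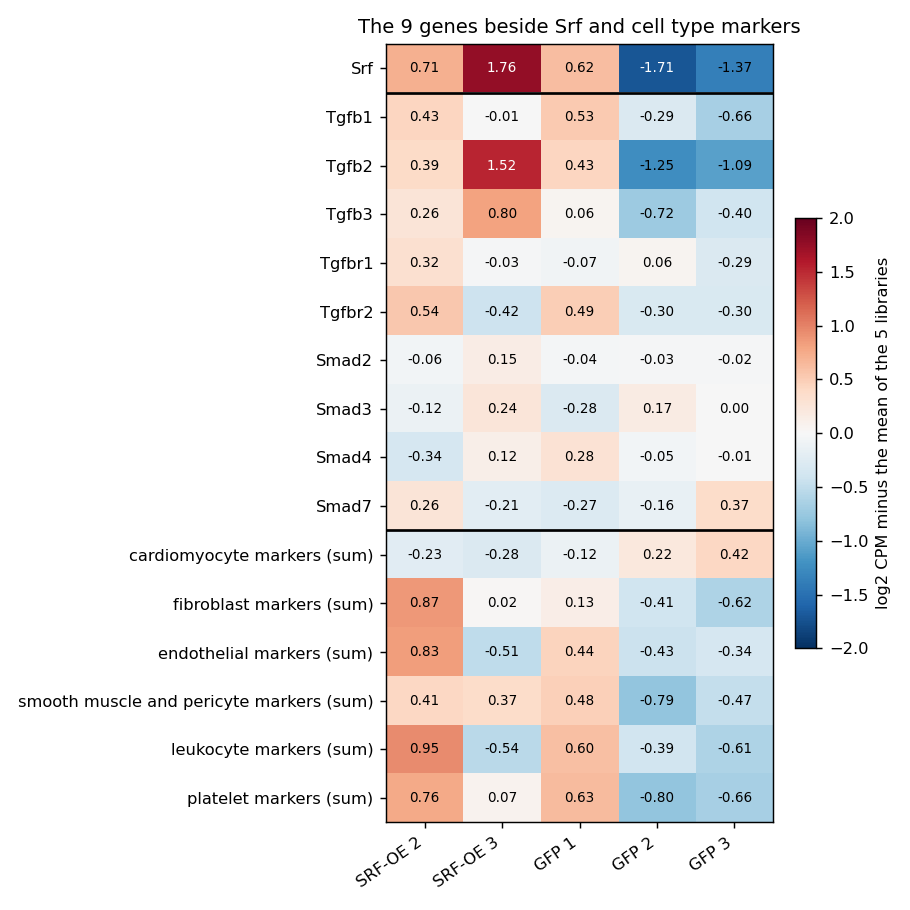
Heat map of log2 CPM minus the mean over the 5 libraries (colour and printed values) for Srf, the 9 genes and the summed markers of 6 cell types (rows) in each library (columns). The row of Tgfb2, from -1.25 to 1.52, has its extremes in the same libraries as Srf, from -1.71 to 1.76, while Tgfbr2 is raised in the 2 libraries where the endothelial and leukocyte sums are raised.

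The genes most like Tgfb2 and Tgfb3 were sought among 8515 other genes with a mean of at least 10 CPM, by the root mean square difference of log2 CPM after centring each gene over the 5 libraries. Closest to Tgfb2 was Lpin3, which encodes a lipin, with a difference of 0.10. Tgm2, Neb, Hspb1 and Mthfd2 each followed with 0.12, beside a median of 1.05 over all candidates. Tgm2 encodes a transglutaminase, Neb the thin filament protein nebulin, Hspb1 a small heat shock protein and Mthfd2 a mitochondrial folate enzyme. Tgm2 was at 657 and 1817 CPM in SRF-OE, at 238 and 256 CPM in GFP replicates 2 and 3 and at 785 CPM in the library labelled GFP1, so its libraries stood in the order of Tgfb2. For Tgfb2, Srf itself ranked 50 of 8515 with a difference of 0.33. Closest to Tgfb3 were Gm9899, the growth factor receptor gene Fgfr1, the Golgi protein gene Golgb1, Cuedc1 and Gfod1, with differences from 0.06 to 0.08 beside a median of 0.55. Srf ranked 7860 for Tgfb3, with a difference of 0.83, above that median, although their libraries stood in the same order. With 5 libraries, no correlation was computed.

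Around the 9 genes, 66 other genes of the pathway were in the table and 62 of them were tested. With the 5 libraries, 0 were called in either direction, as were 0 of the 4 to which DESeq2 gave an adjusted p, and 6 were higher and 1 lower at an unadjusted p under 0.05 (6.35% and 7.59% of all genes). Their median log2 fold change was 0.15, beside 0.03 over all genes. After leaving out the library labelled GFP1, 2 of 61 were higher and 0 lower (1.98% and 0.97% of all genes), and the median was 0.31, beside 0.04. Both that rose were listed under the bone morphogenetic protein and activin branch, the role of 21 of the 61 genes. Smad1, the receptor-activated Smad of that branch, was at 42.3 and 54.5 CPM in SRF-OE, 21.1 and 21.5 CPM in GFP replicates 2 and 3 and 40.8 CPM in the library labelled GFP1. It rose by 1.19 on the log2 scale without that library (standard error 0.17, adjusted p = 0.047 from edgeR) and had a log2 fold change of 0.80 with it (adjusted p = 0.36). Gdf15, a distant ligand of the family known as a stress marker, was at 8.79 and 18.4 CPM in SRF-OE, 1.38 and 2.05 CPM in GFP replicates 2 and 3 and 6.04 CPM in the library labelled GFP1, a log2 fold change of 3.02 without that library (adjusted p = 0.047 from edgeR) and 2.09 with it (adjusted p = 0.35).

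The other pathway genes are given by role, through the genes with the highest level per kb in each. Of the latent complex and its activation, 9 of 11 genes lay above 0 with the 5 libraries, against 53.3% of all genes tested, and 0 were called. At an unadjusted p under 0.05 from edgeR, 0 of the 11 were higher and 1 lower, against 6.35% and 7.59% of all genes. Furin, the protease that cleaves the ligand precursors, was at 137 and 349 CPM in SRF-OE and 115 and 129 CPM in GFP replicates 2 and 3, and at 194 CPM in the library labelled GFP1 (log2 fold change 0.74, adjusted p = 0.42 from edgeR), and the log2 fold change was -0.10 without SRF-OE replicate 3. Ltbp4, which holds latent ligand in the matrix, had a log2 fold change of 0.58 (adjusted p = 0.45 from edgeR) and its highest level in SRF-OE replicate 2, at 328 CPM. Of the accessory receptors, 2 of 5 genes lay above 0. The coreceptor that presents TGF-β2, Tgfbr3, was at 62.0 and 33.6 CPM in SRF-OE and at 74.1 and 67.6 CPM in GFP replicates 2 and 3, with 49.0 CPM in the library labelled GFP1 (log2 fold change -0.41, adjusted p = 0.52 from edgeR). The endothelial coreceptor Eng was highest in SRF-OE replicate 2, at 83.2 CPM, and in the library labelled GFP1, at 65.2 CPM, the libraries with the highest endothelial sum, and its log2 fold change of 0.29 was -0.44 without SRF-OE replicate 2. Among the antagonists and turnover genes 9 of 14 lay above 0. There the abundant Fkbp1a, whose protein holds the type I receptor inactive, had a log2 fold change of 0.04 and the deubiquitinase gene Usp15 of -0.11. Above 0 were also 4 of 6 adaptors and partner transcription factors, 14 of 22 genes of the bone morphogenetic protein and activin branch and 1 of 4 of the non-Smad branch. The adaptor Hgs and the coactivator Crebbp had log2 fold changes of 0.12 and 0.35, the type I receptor gene Bmpr1a of -0.11, and the kinase Map3k7 and its partner Tab1 of the non-Smad branch of -0.26 and -0.27, all without passing the cutoff in either comparison.

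The 48 response genes are genes that TGF-β is known to induce or repress. They share 7 genes with the pathway list and 3 with the cell type markers, and several are also direct targets of SRF. Of 46 tested with the 5 libraries, 0 were called higher and 0 lower, and 13 were higher and 0 lower at an unadjusted p under 0.05 (6.35% and 7.59% of all genes), with a median log2 fold change of 0.58, beside 0.03 over all genes. DESeq2 called 1 higher and 1 lower among the 7 to which it gave an adjusted p (1.02% and 19.7% of all genes with one). Without the library labelled GFP1, 5 of 45 were higher and 1 lower (1.98% and 0.97% of all genes), with a median of 0.74, beside 0.04. Of matrix genes, Sparc was at 1226 and 1899 CPM in SRF-OE, 389 and 313 CPM in GFP replicates 2 and 3 and 1012 CPM in the library labelled GFP1. It rose by 2.16 on the log2 scale without that library (adjusted p = 0.042 from edgeR) and had a log2 fold change of 1.45 with it (adjusted p = 0.35). Loxl2, a collagen crosslinking enzyme, rose by 4.36 (adjusted p = 0.045 from edgeR) from 1.01 and 1.58 CPM in GFP replicates 2 and 3 to 14.3 and 36.9 CPM in SRF-OE. It had 9.22 CPM in the library labelled GFP1, and with it a log2 fold change of 2.68 (adjusted p = 0.35 from edgeR).

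The smooth muscle gene Tagln rose by 2.92 without the library labelled GFP1 (adjusted p = 0.047 from edgeR), Pdgfb, a growth factor gene, by 2.14 (adjusted p = 0.042) and the cell cycle inhibitor gene Cdkn1a by 2.14 (adjusted p = 0.0499). Acta2, the smooth muscle actin gene that like Tagln is a classical target of SRF, fell by 1.45 (adjusted p = 0.0499), from 1018 and 1464 CPM in GFP replicates 2 and 3 to 530 and 372 CPM in SRF-OE, with 463 CPM in the library labelled GFP1. With upper quartile scaling of these 4 libraries the edgeR adjusted p was 0.052 for Tagln and Gdf15, 0.053 for Cdkn1a and 0.060 for Acta2, so these calls were lost. With the 5 libraries the log2 fold changes were 2.30 for Tagln, 1.28 for Pdgfb, 1.62 for Cdkn1a and -1.12 for Acta2. Their adjusted p from edgeR ran from 0.35 for Tagln to 0.37 for Pdgfb. DESeq2 on the 5 libraries gave Acta2 a log2 fold change of -1.13 with an adjusted p of 0.040. Acta2 was the response gene it called lower, beside 1 called higher. The most abundant genes of these roles that did not pass were Col4a1, Tsc22d1 and Vegfa, with log2 fold changes of 0.22, 0.09 and -0.61. Pmepa1, a feedback inhibitor of receptor signalling named here after its values were seen, was at 26.2 and 30.6 CPM in SRF-OE, 16.8 and 17.1 CPM in GFP replicates 2 and 3 and 20.9 CPM in the library labelled GFP1 (log2 fold change 0.64, adjusted p = 0.35 from edgeR). The levels of Smad7 overlapped, as did those of Skil and Smad6 of the role of Pmepa1 (log2 fold changes 0.09 and 0.03). In that role, direct feedback and transcription factors, 6 of 16 genes had both SRF-OE libraries above every GFP library and 0 below, against 16.1% and 17.3% of all genes. Of the matrix genes this was true of 5 of 19, and of the contractile and signalling genes of 5 of 11, with 0 below in each. The trait was thus not particular to the role of Pmepa1.

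**Figure D5:**
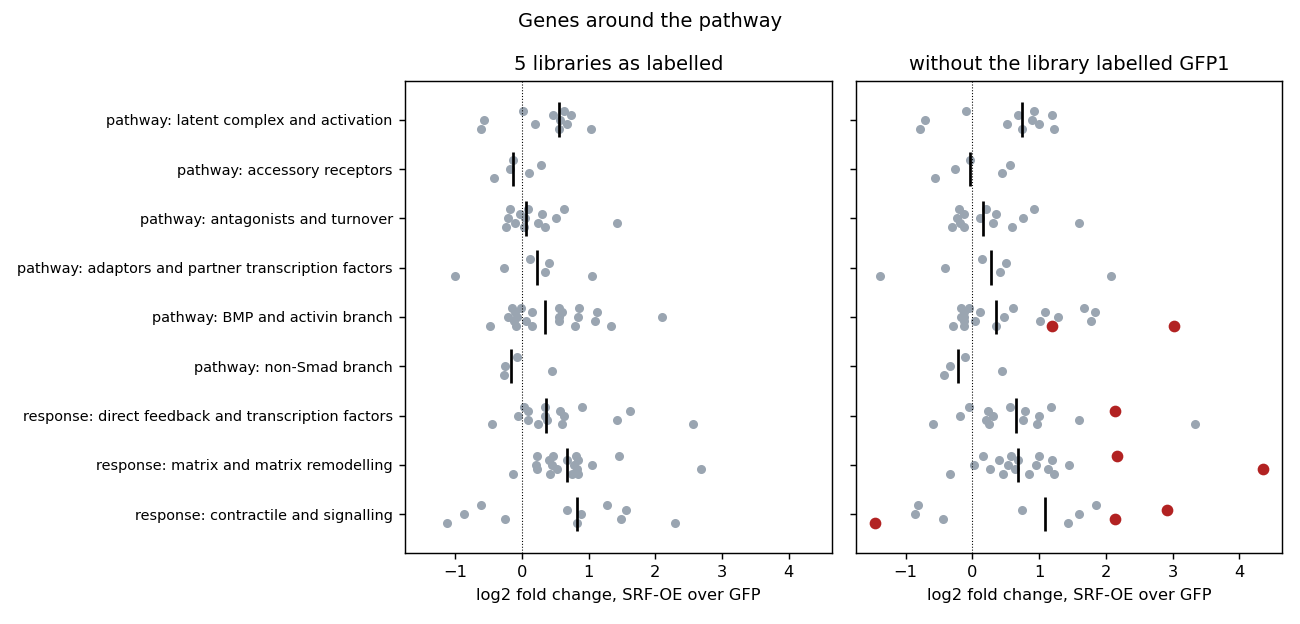
log2 fold change of SRF-OE over GFP (x axis) for the tested genes around the pathway, by role (y axis), with the 5 libraries on the left and without the library labelled GFP1 on the right. Each point is a gene, genes in both lists are drawn in both, red points passed an adjusted p of 0.05 and black bars are medians. No point is red with 5 libraries, and 2 pathway and 6 response genes are red on the right.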

How the data were processed

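GFP-positive CMs of the SRF-OE and GFP groups were profiled by bulk RNA-seq with SMART-Seq v4 and Nextera XT libraries. Reads were aligned to mm10 by the authors with STAR 2.5.3a and counted per gene with featureCounts of Subread 1.5.2 (versions from the submitters' processing notes), and the deposited counts are raw. One other deposited column holds gene lengths in bp. In R 4.3.3, the counts were filtered with filterByExpr, scaled with TMM factors and tested with edgeR 4.0.16 (glmQLFit and glmQLFTest), with Benjamini-Hochberg adjustment over all genes tested and a cutoff of 0.05. The standard error is the size of the log2 fold change divided by the square root of F. The p-values measure the spread between libraries that the study calls biological replicates. DESeq2 1.42.0, other scalings and filters, a replicate block and leaving out each library were alternatives. Where an SRF-OE library was left out, the lone one was assumed to vary like the GFP libraries. Both fits were tested on simulated counts, in which the libraries of a group shared the same mean per gene. No simulated library went against its label, so that test does not speak to the library labelled GFP1. The 9 genes, the lists and the weight on the library labelled GFP1 were chosen with earlier results of these data known. Named in the text are the 9 genes, per role the 2 list genes with the highest level per kb, list genes past the cutoff, the 5 genes most like 2 of the 9 (the one with the widest range and the one with the smallest p), and Srf. Pmepa1, Skil and Smad6 were added after their values were seen. Gene positions are from GENCODE M21 on GRCm38, the build mm10 names.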

Additional observations from a re-analysis of the deposited data

How the results depend on the processing

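With the 5 libraries as labelled, 0 of the 9 genes, 0 other pathway genes, 0 response genes and 0 genes in all were called, and this held under upper quartile scaling, under scaling by the size factors of DESeq2, without a filter on low counts and with a minimum of 10 counts per library. DESeq2 called 2 response genes and, in all, 11 genes higher and 213 lower. The replicate block called 2 of the 9 genes, Tgfb2 and Tgfb3, 5 pathway and 9 response genes, with 582 genes higher and 432 lower in all. The edgeR adjusted p of Tgfb2 and Tgfb3 was 0.012 and 0.029, and 0.015 and 0.032 on 4 libraries. In this block the library labelled GFP1 is alone in its number, so it carries no weight in the contrast. The block on 5 libraries thus compares the other 4, and the log2 fold change of Tgfb2 was 2.12 in both. The replicate numbers were not taken to pair the libraries, since the labels do not say that they do. Across genes, the correlation of deviations from the group mean was 0.396 between the libraries with number 2 and -0.074 between those with number 3. With 2 SRF-OE libraries, the SRF-OE deviations are equal in size and opposite in sign. The 2 values are thus not separate checks and cannot settle pairing. The 4 libraries, at 0.217, hold fewer than 3 pairs. There, number and sex coincide. Leaving out each library gave 0 to 1 of the 9 genes, 0 to 2 pathway genes, 0 to 6 response genes, 0 to 265 genes higher and 0 to 130 lower, and each upper value came without the library labelled GFP1. On those 4 libraries, DESeq2 called 2 of the 9 genes, 12 pathway and 17 response genes (853 higher and 833 lower in all), upper quartile scaling 0, 1 and 3 (88 and 9), and the replicate block 2, 5 and 8 (547 and 392). Apart from the block on 5 libraries, which gives the library labelled GFP1 no weight, the cause of these differences was not tested.

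The ligands and Tgfbr1 kept a positive log2 fold change whichever library was left out. The ranges were 0.04 to 0.69 for Tgfb1, 0.79 to 2.24 for Tgfb2, 0.57 to 1.12 for Tgfb3 and 0.062 to 0.41 for Tgfbr1. Ranges that crossed 0 were -0.43 to 0.51 for Tgfbr2, -0.039 to 0.18 for Smad2, -0.11 to 0.26 for Smad3, -0.43 to 0.037 for Smad4, -0.22 to 0.25 for Smad7, -0.44 to 0.76 for Eng, -0.10 to 1.26 for Furin, -7.9e-05 to 0.21 for Hgs, -0.010 to 0.12 for Fkbp1a and -0.027 to 0.25 for Tsc22d1. Smad3 was at -0.030 with the replicate block on 5 libraries, and on 4 at -0.020 with DESeq2 and -0.024 with the block. Smad7 was at -0.079 with the block on 5 libraries, and on 4 at -0.087 with DESeq2, -0.017 with upper quartile scaling and -0.074 with the block. With 2 SRF-OE libraries, the width of the intervals limits what can be said of the receptors and Smads.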
